A study of Mus musculus with 4 samples.

Results

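The collagen gene family of mouse cortical neural stem cells is described here. Its members were selected on the gene symbol alone, "Col" followed by a chain type, an "a" and a chain number, in a deposited table that compares these cells with and without knockdown of the transcription factor Foxp1. The table held 44 such genes among 26815 entries. Of these, 20 had been tested for a difference by the authors and 24 had not. The family was put forward with earlier results of these data known, so its counts and values describe the family and are not a test of it.

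Neural stem cells from the cortex of CD-1 mouse embryos (E14.5) had been bought from a commercial source and grown as a monolayer on poly-L-ornithine and laminin in medium with EGF and bFGF. All cells carried a lentivirus and were kept under puromycin at 0.5 µg/mL, which selects for transduced cells. The control group of 2 libraries carried the scrambled shRNA SHC002, and the knockdown group of 2 libraries carried an shRNA against Foxp1 named pLKO.1_sh_ex15 1. Within a group the labels call the libraries biological duplicates from different passages, so what a p-value measures here is at most the spread between passages. Libraries were made from poly(A) RNA with the SOLiD Total RNA-Seq kit. The deposited values are 1 comparison per gene between conditions coded q1 and q2, and no label or header says which code is which shRNA. Directions are therefore given as q2 relative to q1. Values for single libraries were not analysed here, so levels, depth and the spread between replicates are unknown. Foxp1 (GRCm38 chromosome 6, 98925342 to 99435345) stood at a log2 fold change of -2.03 per the authors' deposited table, which is 4.09-fold lower in q2 ( Cuffdiff q = 0.00162). In bulk RNA, fewer cells of a type and less RNA per cell cannot be told apart.

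Collagens are extracellular matrix proteins whose chains wind around each other as a triple helix. The helix needs glycine at regular places, which gives the repeat Gly-X-Y. Fibrillar collagens have a long unbroken helix and pack into the fibrils of connective tissue. Type IV collagens have many short breaks in the repeat and form the flexible sheets of basement membranes, which in the developing brain lie under the pia and around vessels. FACIT collagens do not form fibrils but sit on the surface of fibrils, multiplexins are basement membrane proteoglycans, and transmembrane collagens are anchored in the cell membrane. Type VI collagens form beaded filaments.

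Collagen genes lay mostly on the higher side in q2. Of the 20 tested genes, 8 (40%) were called higher at a Cuffdiff q under 0.05 per the authors' deposited table. They were the basement membrane genes Col4a1, Col4a2 and Col18a1, the FACIT genes Col12a1 and Col9a3, the fibrillar gene Col5a1, the transmembrane gene Col23a1 and Col28a1. Another 2 were called lower, Col11a1 and Col26a1, which is 10% of the tested family. Over all 15315 tested entries of the authors' deposited table, 7.63% were called, 4.24% higher and 3.39% lower. The fold change was positive in 16 of the 20 genes, and their median log2 fold change per the authors' deposited table was 0.57, beside -0.05 over all tested entries. At an unadjusted Cuffdiff p under 0.05 there were 11 genes, the additional one being Col5a2, beside 2941 of all 15315 tested entries. When p was taken as the two-sided normal p of the deposited statistic, 5 genes were called, Col4a1, Col4a2, Col5a1, Col12a1 and Col28a1, and Col9a3, Col11a1, Col18a1, Col23a1 and Col26a1 lost the call. The number called over all entries with that normal p is not given here.

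**Figure D1:**
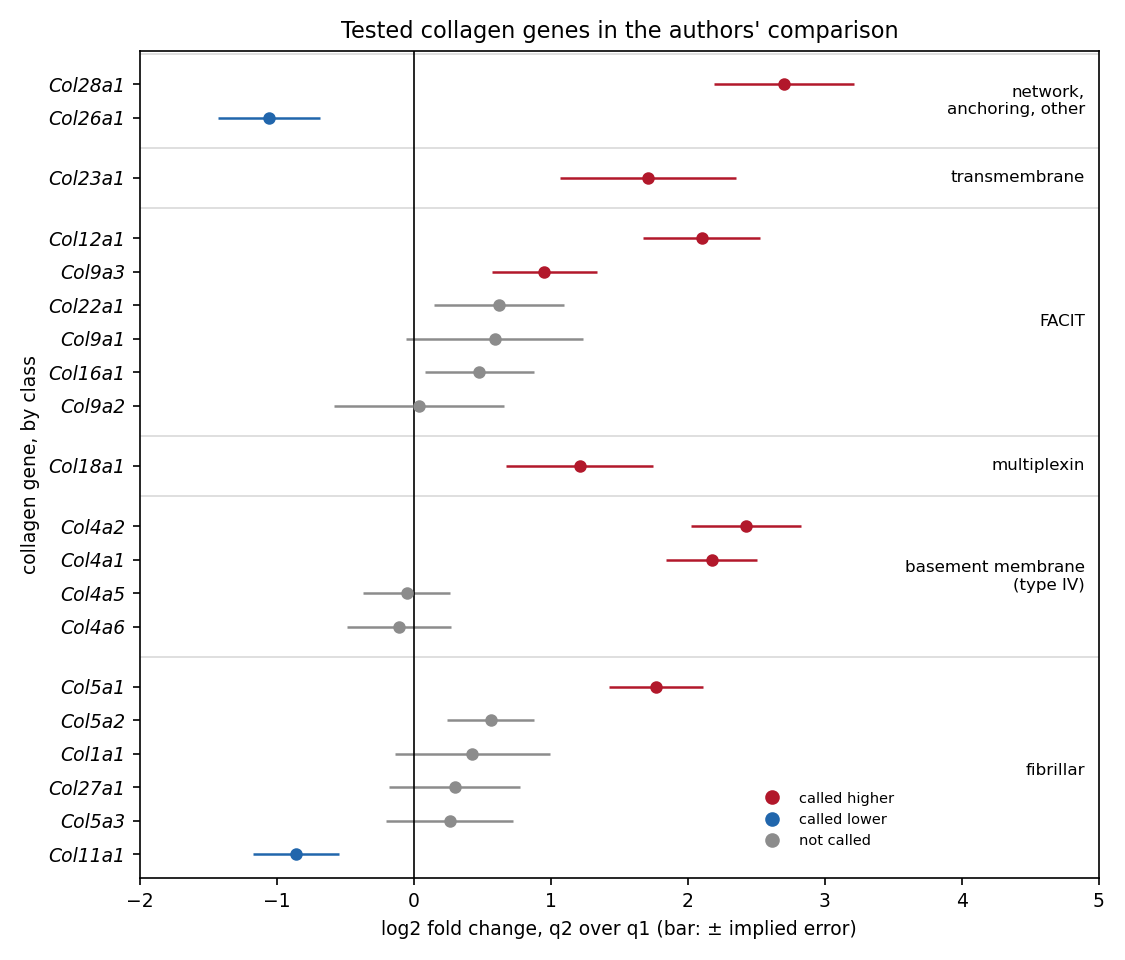
The 20 tested collagen genes (y axis, grouped by class) by their log2 fold change between q2 and q1 (x axis), from the authors' deposited table. Points are the deposited values, with higher calls in red, lower calls in blue and uncalled genes in grey. Bars reach 1 implied error (log2 fold change divided by the test statistic, not a standard error) to each side. The called genes run from Col26a1 at -1.06 to Col28a1 at 2.70.

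A scale of error for a fold change was read as the log2 fold change divided by the deposited test statistic, called the implied error below. It is not a standard error. For the tested collagen genes above the lowest deposited p, the deposited p was smaller than the normal p of the statistic. For those genes the implied error is therefore larger than the error to which their p-values correspond. Its median was 0.41 over the 20 tested collagen genes, with a range from 0.32 to 0.65, and 0.38 over all tested entries of the authors' deposited table. Called and uncalled members overlapped in this error, at medians of 0.39 and 0.47. In fold change they did not overlap, since the smallest absolute log2 value of a called member per the authors' deposited table was 0.86 and the largest of an uncalled one was 0.62. Calls follow the statistic, which is the fold change divided by this error, so such a separation is partly built in. The called member nearest the threshold was Col18a1 at a Cuffdiff q of 0.0332, and the nearest outside it was Col5a2 at 0.107, per the authors' deposited table. The authors' p-values stop at 5e-05, a value shared by 5 collagen genes, so their common q of 0.00162 cannot order them. Their statistics can. Col4a1 came first at 6.50, followed by Col4a2 at 6.05, Col28a1 at 5.29, Col5a1 at 5.19 and Col12a1 at 4.91 per the authors' deposited table.

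Type IV collagens, the network formers of basement membranes, were split into a pair that differed and a pair that did not pass the test. Col4a2 (chromosome 8, 11312829 to 11449287) was 5.38-fold higher in q2 per the authors' deposited table, with a log2 fold change of 2.43, an implied error of 0.40 and a Cuffdiff q of 0.00162. Its partner chain Col4a1 (chromosome 8, 11198423 to 11312826) was 4.51-fold higher, with a log2 fold change of 2.17, an implied error of 0.33 and the same q per the authors' deposited table. These chains assemble together, as a trimer that nearly all basement membranes contain. The difference between them, 0.25 on the log2 scale, was smaller than their combined implied error of 0.52. Col4a5 and Col4a6, whose chains occur in basement membranes of fewer tissues, stood at -0.05 and -0.11 per the authors' deposited table with implied errors of 0.32 and 0.38, and neither was called. Col4a1 exceeded Col4a5 by 2.23 (combined implied error 0.46), and Col4a2 exceeded Col4a6 by 2.53 (combined implied error 0.55). These combined errors treat the genes of a pair as independent, although they were measured in the same libraries, and no test was made of the differences. They also share the limits of the implied error given above. Col4a3 and Col4a4, known from the basement membrane of the kidney glomerulus, were not tested by the authors.

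These genes lie in head-to-head pairs, with transcription leading away from a common stretch of DNA. In the authors' deposited table the loci of Col4a1 and Col4a2 were 2 bases apart, and those of Col4a6 and Col4a5 on chromosome X were 1342 bases apart. In RefSeq annotation of GRCm38.p6 the start sites of the first pair lay 21 bases from each other, with the first bases of the transcripts overlapping, and those of the second lay 1343 bases apart. The promoters of both pairs are shown because both genes of the first pair were called higher and neither of the second was called. Each window runs from 250 bases before to 50 bases after the RefSeq start, 5′ to 3′ on the gene's own strand: Col4a1 at chr8:11312777-11313076 (minus strand), Col4a2 at chr8:11312555-11312854 (plus strand), Col4a5 at chrX:141475169-141475468 (plus strand) and Col4a6 at chrX:141474027-141474326 (minus strand). Capitals mark CCAAT, the letters bound by the NF-Y factor, and GGGCGG, the GC box, on either strand; TATAAA was searched as well and was not found in these windows.
Col4a1: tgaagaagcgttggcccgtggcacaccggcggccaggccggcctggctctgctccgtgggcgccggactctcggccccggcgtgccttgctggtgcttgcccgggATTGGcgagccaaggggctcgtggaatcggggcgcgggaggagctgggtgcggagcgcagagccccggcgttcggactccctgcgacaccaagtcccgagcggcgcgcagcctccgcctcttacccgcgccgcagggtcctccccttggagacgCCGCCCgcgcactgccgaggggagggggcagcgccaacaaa
Col4a2: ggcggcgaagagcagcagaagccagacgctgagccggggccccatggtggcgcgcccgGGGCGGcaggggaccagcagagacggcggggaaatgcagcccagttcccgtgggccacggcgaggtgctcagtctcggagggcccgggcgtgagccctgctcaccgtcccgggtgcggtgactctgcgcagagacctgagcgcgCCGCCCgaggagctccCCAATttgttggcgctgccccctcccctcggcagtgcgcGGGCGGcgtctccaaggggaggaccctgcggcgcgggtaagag
Col4a5: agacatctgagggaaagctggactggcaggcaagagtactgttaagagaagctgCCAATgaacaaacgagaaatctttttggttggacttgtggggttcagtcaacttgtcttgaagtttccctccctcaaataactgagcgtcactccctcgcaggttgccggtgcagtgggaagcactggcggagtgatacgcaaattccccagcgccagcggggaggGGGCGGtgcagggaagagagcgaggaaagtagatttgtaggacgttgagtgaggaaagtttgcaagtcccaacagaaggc
Col4a6: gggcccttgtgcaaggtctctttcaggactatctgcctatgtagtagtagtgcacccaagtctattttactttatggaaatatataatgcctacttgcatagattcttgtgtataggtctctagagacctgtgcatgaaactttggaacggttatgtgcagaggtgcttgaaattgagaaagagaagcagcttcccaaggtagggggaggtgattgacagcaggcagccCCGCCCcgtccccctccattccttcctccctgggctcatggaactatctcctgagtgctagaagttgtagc
The windows of Col4a1 and Col4a2 share 78 bases, read on opposite strands, and those of Col4a5 and Col4a6 share 0. GC content was 74.0% for Col4a1 and 73.7% for Col4a2, against 52.7% for Col4a5 and 48.3% for Col4a6. Col4a1 held 1 CCAAT and 1 GGGCGG, and Col4a2 held 1 CCAAT and 3 GGGCGG. Col4a5 held 1 of each, and Col4a6 held 1 GGGCGG and 0 CCAAT. The GGGCGG of Col4a1 lies in the 78 shared bases and is the last GGGCGG of Col4a2 read on the other strand. That site is therefore counted in both windows.

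**Figure D2:**
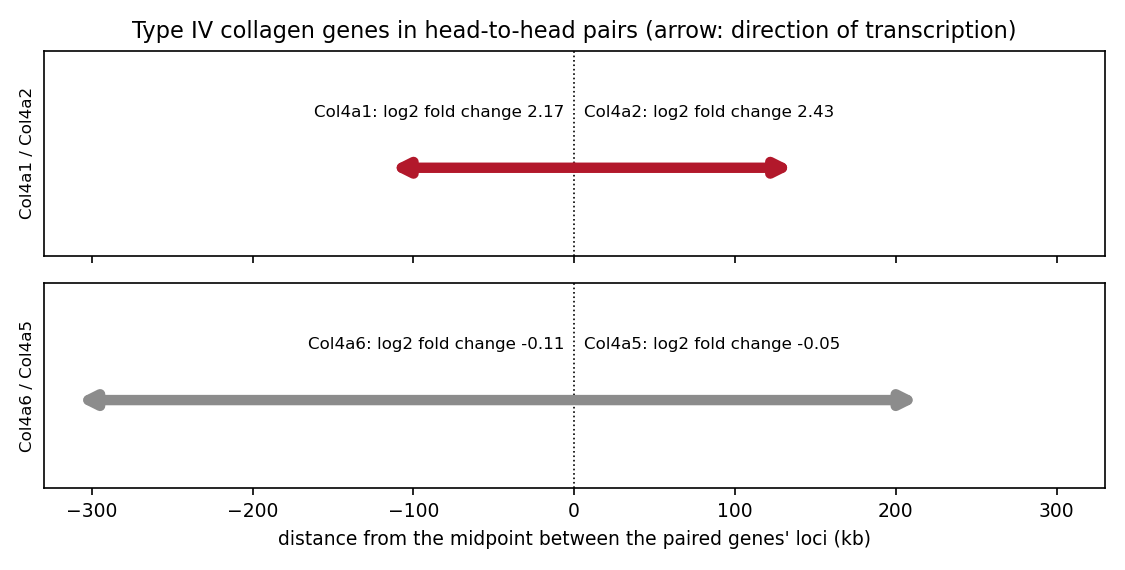
Loci of the head-to-head type IV pairs, as distance in kb from the midpoint between the paired loci (x axis), with 1 panel per pair and arrows in the direction of transcription. Red marks called higher and grey not called per the authors' deposited table; the first pair stands at log2 fold changes of 2.17 and 2.43 and the second at -0.11 and -0.05.

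Other collagens of basement membranes belong to the multiplexins. Col18a1 (chromosome 10, 77052179 to 77166530), whose chain carries heparan sulfate and releases the fragment endostatin, was 2.31-fold higher in q2 per the authors' deposited table (log2 fold change 1.21, implied error 0.53, Cuffdiff q = 0.0332). Once the trend of fold change with transcript GC content was removed, its log2 value went to 0.87 with an adjusted p of 0.175, and the call was lost. Col15a1, the other multiplexin, was not tested.

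Fibrillar collagens held members that went opposite ways. Col5a1 (chromosome 2, 27886425 to 28039510), the chain of type V collagen that starts and limits the growth of type I fibrils, was 3.40-fold higher in q2 per the authors' deposited table, at a log2 fold change of 1.77 with an implied error of 0.34 (Cuffdiff q = 0.00162). Col11a1 (chromosome 3, 114030540 to 114220326), a closely related chain best known from the type II fibrils of cartilage, was 1.82-fold lower, at -0.86 with an implied error of 0.32 (Cuffdiff q = 0.00292) per the authors' deposited table. Type V and type XI chains can enter the same trimer. The distance between Col5a1 and Col11a1 was 2.63 on the log2 scale, with a combined implied error of 0.47. The other type V chains followed Col5a1 in sign but were not called: Col5a2 stood at 0.56 (Cuffdiff q = 0.107) and Col5a3 at 0.26 per the authors' deposited table. Col5a1 lay above Col5a2 by 1.21 and above Col5a3 by 1.50, with combined implied errors of 0.46 and 0.58. Col1a1, the main chain of the type I collagen of skin and bone, was at 0.43 and Col27a1 at 0.30 per the authors' deposited table, and neither was called. In all, 6 of 11 fibrillar genes were tested, with a median of 0.36. The remaining 5, Col1a2, Col2a1, Col3a1, Col11a2 and Col24a1, were not tested. Among them Col1a2, the partner chain of Col1a1, was, per the authors' deposited table, listed at 0 in q2.

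All 6 tested FACIT genes had a positive fold change, and 2 were called. Col12a1 (chromosome 9, 79598987 to 79718722), a very large chain that binds the surface of type I fibrils, was 4.29-fold higher in q2 per the authors' deposited table (log2 fold change 2.10, implied error 0.43, Cuffdiff q = 0.00162). Col9a3 (chromosome 2, 180598222 to 180642691) was 1.94-fold higher, at 0.95 with an implied error of 0.38 (Cuffdiff q = 0.0157) per the authors' deposited table. Without the GC trend it stood at 0.70 with an adjusted p of 0.105, outside the threshold. Its locus also overlaps that of Tcfl5, which was not tested, and the sources used here do not say whether counting used strand. Col9a3 forms type IX collagen with Col9a1 and Col9a2, which were at 0.59 and 0.04 per the authors' deposited table and not called. The type IX chains differed by at most 1.25 combined implied errors: Col9a3 was above Col9a1 by 0.36 and above Col9a2 by 0.92, with combined implied errors of 0.75 and 0.73. Col22a1, known from tissue junctions, was at 0.62 (Cuffdiff q = 0.293), and Col16a1 was at 0.48 (Cuffdiff q = 0.356) per the authors' deposited table. The median over the 6 was 0.60, and Col14a1, Col19a1 and Col20a1 were not tested.

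The remaining classes gave few measurements. Of 4 transmembrane collagens only Col23a1 (chromosome 11, 51289920 to 51583925) was tested, and it was 3.27-fold higher in q2 per the authors' deposited table (Cuffdiff q = 0.0232), at 1.71 on the log2 scale. Its implied error of 0.64 was the largest among the called members. Col13a1, Col17a1 and Col25a1, a neuronal collagen found in amyloid plaques, were not tested; Col13a1 was listed at 0 in q1 and Col17a1 in q2, both per the authors' deposited table. None of the 6 type VI genes, Col6a1 to Col6a6, was tested, and Col6a5 was, per the authors' deposited table, listed at 0 in q2. In the group of network, anchoring and other collagens, Col7a1, Col8a1, Col8a2 and Col10a1 were not tested, with Col10a1 listed at 0 in q1 per the authors' deposited table.

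The tested members of that last group had the highest and the lowest fold change among the 20 tested collagens. Col28a1 (chromosome 6, 7997808 to 8192617), a collagen with von Willebrand factor A domains known from peripheral nerve, had the highest fold change of the tested collagens at 6.51-fold (log2 fold change 2.70, implied error 0.51, Cuffdiff q = 0.00162) per the authors' deposited table. Among 15197 tested entries with a finite log2 fold change it ranked 58 from the top, with Col4a2 at rank 96 and Col4a1 at rank 140. Col26a1 (chromosome 5, 136741764 to 136883107), a short collagen with an EMI domain, had the lowest value of the tested collagens, 2.08-fold lower in q2 (log2 fold change -1.06, implied error 0.37, Cuffdiff q = 0.00292) per the authors' deposited table. The promoter of Col28a1 is shown for contrast with the GC-rich window of Col4a1 and Col4a2 (chr6:8192568-8192867, minus strand, RefSeq GRCm38.p6). It held none of the searched motifs, so no letter is in capitals, and its GC content was 41.7%.
Col28a1: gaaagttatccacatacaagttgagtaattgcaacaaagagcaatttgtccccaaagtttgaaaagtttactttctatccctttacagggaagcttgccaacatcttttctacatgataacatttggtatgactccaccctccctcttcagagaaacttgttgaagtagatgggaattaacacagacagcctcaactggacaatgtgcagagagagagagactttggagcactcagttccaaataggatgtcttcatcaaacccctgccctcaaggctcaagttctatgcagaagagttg
Col28a1 thus differed from Col4a1 and Col4a2 in promoter GC content and held none of their marked motifs. Its promoter was picked for this contrast, so the difference does not describe the other genes called higher. Of those, Col9a3 and Col12a1 had no RefSeq promoter entry.

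Across the family, 35 of the 44 genes had an entry in the RefSeq promoter table, with 38 promoters of 300 bases. The genes without one were Col1a1, Col2a1, Col4a3, Col5a2, Col9a3, Col12a1, Col14a1, Col22a1 and Col26a1. Motifs were searched on both strands. GGGCGG was found in 60.5% of collagen promoters and 35.7% of all 32851 promoters, and median GC content was 59.8% and 52.7%. Of the 8 promoters of called genes 6 held it, those of Col4a1, Col4a2, Col5a1, Col11a1, Col18a1 and Col23a1, and so both directions are among them. The windows of Col4a1 and Col4a2 share 1 of these sites. CCAAT was found in 34.2% of collagen promoters and 37.4% of all, and in 4 of the 8, those of Col4a1, Col4a2, Col11a1 and Col18a1. TATAAA occurred in 13.2% of collagen promoters and 13.6% of all, and in 0 of the 8. TGTTTAC, a core sequence of forkhead factors, the class to which Foxp1 belongs, was found in 1 collagen promoter (2.63%) and in 3.65% of all, and in 0 of the 8. The motifs shown in capitals do not overlap each other, and a match describes letters only. On the gene's own strand alone the shares among collagens and all promoters were 36.8% and 23.4% for GGGCGG, 21.1% and 21.1% for CCAAT, 13.2% and 8.32% for TATAAA, and 0% and 1.85% for TGTTTAC.

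The chains encoded by these genes differ in how their helix is broken up. In the longest coding sequence of each gene (GENCODE M21), runs of at least 3 Gly-X-Y triplets were counted. Fibrillar genes had a median longest run of 338 triplets, from 216 in Col24a1 to 344 in Col3a1, and 2 to 5 runs per chain. Type IV genes had 23 to 27 runs, the longest of 39 to 66 triplets. The called pair Col4a1 and Col4a2 had 23 and 24 runs, and the uncalled pair Col4a5 and Col4a6 had 23 and 25. In the fibrillar class the opposite members Col5a1 and Col11a1 both had a longest run of 338 triplets. The short helices at 30 triplets or fewer belonged to Col18a1 and Col15a1 at 30, Col28a1 at 28 and Col26a1 at 23, the last in a chain of 440 codons. FACIT chains ranged widely, from 32 triplets in Col12a1, where 8.12% of 3065 codons lay in such runs, to 113 in Col9a3, where the share was 85.6%. The median longest run was 41.5 triplets in the 10 called genes, 113 in the 10 tested and not called, and 56 in the 24 not tested, with ranges of 23 to 338, 42 to 339 and 30 to 344 that overlap.

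**Figure D3:**
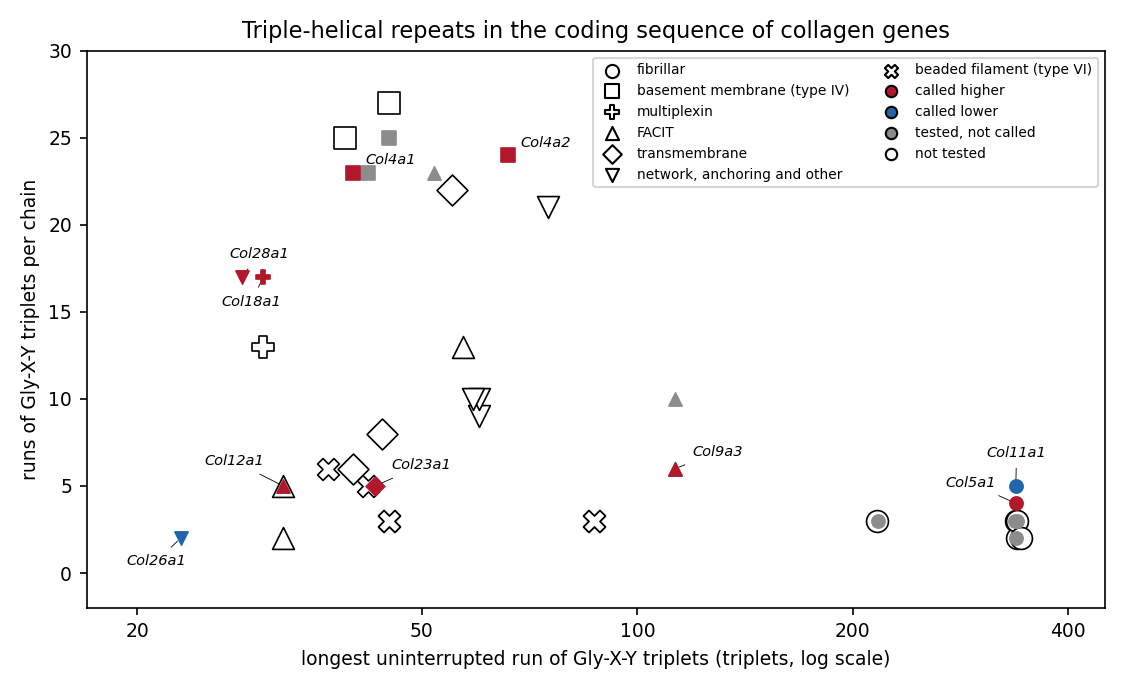
Longest uninterrupted run of Gly-X-Y triplets (x axis, log scale) against the number of such runs (y axis) in the coding sequence of the 44 collagen genes. Shapes give the class, filled symbols are tested genes (red called higher, blue called lower, grey not called) and open symbols are untested ones, some of which lie under others; fibrillar genes sit at 216 to 344 triplets with 2 to 5 runs and type IV genes at 39 to 66 triplets with 23 to 27 runs.

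Some collagen genes lie near each other, and 18 of them formed 10 neighbouring pairs within 500 kb. Only the type IV pairs described above had both genes tested. Where 1 of a pair was tested, the neighbours were Col9a1 with Col19a1 (4.94 kb), Col5a2 with Col3a1 (24.6 kb), Col18a1 with Col6a1 (326 kb) and Col9a3 with Col20a1 (344 kb). Beyond the family, the called collagens had 18 nearest tested neighbours, and 2 of these were called, a count to set beside the 7.63% called over all tested entries. Irs2, an adaptor of insulin signalling 144 kb from Col4a1, was higher at 1.15 (Cuffdiff q = 0.00162) per the authors' deposited table. Olfm3, a secreted olfactomedin 643 kb from Col11a1, was lower at -2.70 (Cuffdiff q = 0.00918) per the authors' deposited table. On the other side of the type IV pair, Rab20 lay 4.69 kb from Col4a2 and was not called, at 0.71 (Cuffdiff q = 0.457) per the authors' deposited table.

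Genes that act on collagen were taken from lists, which like the family were drawn up with earlier results of these data known, so their counts are descriptions to set beside the 4.24% called higher and 3.39% called lower over all tested entries. Among enzymes that fold and modify collagen chains in the endoplasmic reticulum, 4 of 17 tested were called higher, 0 lower and 13 not, with a median of 0.40. P4ha3, a prolyl 4-hydroxylase subunit whose product stabilises the helix, was at 2.98 per the authors' deposited table. The prolyl 3-hydroxylase family members Leprel1 and Leprel4 were at 2.08 and 1.42, and Colgalt2, which adds galactose to hydroxylysine, was at 1.57 per the authors' deposited table (Cuffdiff q = 0.00162 for all 4). The general collagen chaperone Serpinh1 (0.40) and the common subunits P4ha1 (-0.32) and P4hb (0.09) were not called per the authors' deposited table. At an unadjusted Cuffdiff p under 0.05 there were 9 of the 17, beside 2941 of all 15315 tested entries. The uncalled ones among them were Fkbp10 (2.56), Leprel2 (0.93), Glt25d1 (0.62), Crtap (0.58) and, on the lower side, Tmem38b (-0.56) per the authors' deposited table. Of 9 tested genes of secretion and propeptide removal, 2 were called higher and 0 lower, with a median of -0.04. They were Pcolce, an enhancer of C-propeptide cleavage, at 1.71, and the N-propeptidase gene Adamts14 at 1.32 per the authors' deposited table (Cuffdiff q = 0.00162 for both).

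Basement membrane partners of type IV collagen lay on the same side as Col4a1 and Col4a2. All 11 tested members had a positive fold change, 7 were called higher and 0 lower, and the median was 0.97. Over all 15315 tested entries 6998 had a positive fold change and 4.24% were called higher. The laminin chain Lama4 was at 2.02, the proteoglycan gene Hspg2 (perlecan) at 1.61, the laminin chain Lama5 at 1.52 and Nid1, which links laminin to type IV collagen, at 1.47 per the authors' deposited table (Cuffdiff q = 0.00162 for all 4). The loci of Hspg2 and Lama5 overlap other entries, and with such entries left out 5 partners were called higher. Cross-linking and fibril-binding genes were mostly untested, with 9 of 12 not tested. Of the 3 tested, Sparc, a collagen-binding glycoprotein, was called higher at 1.51 (Cuffdiff q = 0.00162), and Pxdn, which cross-links type IV collagen, at 0.36 and Loxl3 at -0.50 were not called per the authors' deposited table. Collagen receptors had 1 of 6 tested called higher and 1 lower. The endocytic collagen receptor Mrc2 was at 1.96 and the receptor tyrosine kinase gene Ddr2 at -1.93 per the authors' deposited table (Cuffdiff q = 0.00162 for both). The locus of Ddr2 also overlaps another entry, and with such entries left out 0 receptors were called lower. Over all 15315 tested entries, 2941 had an unadjusted Cuffdiff p under 0.05. The degradation list holds proteases and also the metalloprotease inhibitors Timp1, Timp2 and Timp3, so its counts mix opposite functions. Cuffdiff called 0 of its 7 tested genes, with 3 of 7 at an unadjusted Cuffdiff p under 0.05. Among these, Mmp2, a gelatinase that also cuts type IV collagen, was at 1.29 (Cuffdiff q = 0.0883), and the inhibitor gene Timp3 was at -0.59 (Cuffdiff q = 0.0951) per the authors' deposited table. Timp1 had the highest value of the degradation list, 3.20 per the authors' deposited table. Its implied error was 4.41 and it was not called (Cuffdiff q = 0.486).

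**Figure D4:**
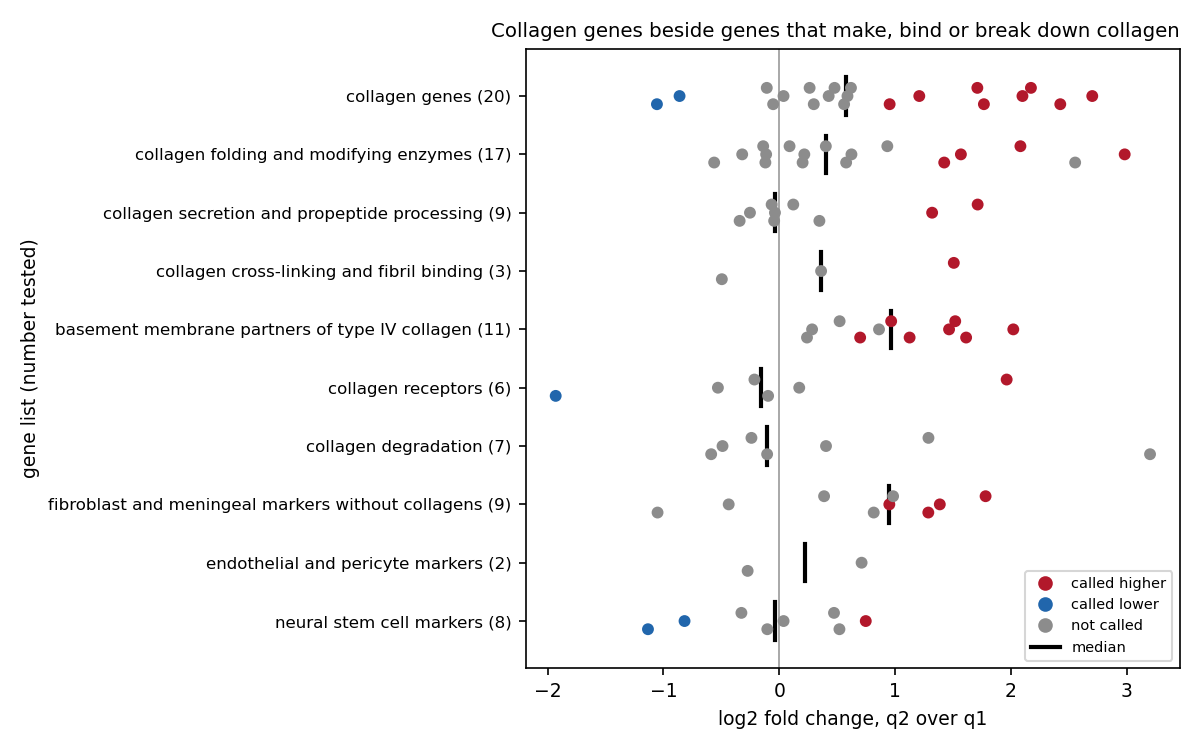
Tested collagen genes and tested members of 9 other lists (y axis, how many were tested in parentheses) by log2 fold change between q2 and q1 (x axis), from the authors' deposited table. Each point is 1 gene, with higher calls in red, lower calls in blue and uncalled genes in grey. A black bar is the median, 0.57 for collagens, 0.97 for basement membrane partners and -0.10 for the degradation list, protease inhibitors included.

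Markers of other cells that make collagen were read beside the family. Over all tested entries 4.24% were called higher and 3.39% lower, the shares to set beside the counts below. Of 15 fibroblast and meningeal markers other than collagens 9 were tested, 4 were called higher and 0 lower, and the median was 0.95, with values from -1.05 to 1.78 per the authors' deposited table. The called members were the matrix genes Fn1 at 1.78 and Fbn1 at 1.39, the meningeal transcription factor gene Foxc1 at 1.29 and Acta2, an actin of smooth muscle, at 0.95 per the authors' deposited table (Cuffdiff q = 0.00162 for all 4). Acta2 lost its call with the normal p of the Cuffdiff statistic (Benjamini-Hochberg adjusted over all tested entries, 0.0819). On the lower side of the same list, Tbx18 was at -1.05 (Cuffdiff q = 0.146) and Twist1 at -0.44 (Cuffdiff q = 0.579) per the authors' deposited table, and neither was called. On the higher side, S100a4 at 0.98 (Cuffdiff q = 0.477), Tagln at 0.82 (Cuffdiff q = 0.834) and Thy1 at 0.39 (Cuffdiff q = 0.701) were not called either, per the authors' deposited table. Of this list, Dcn, Lum, Postn, Pdgfrb, Mgp and Aldh1a2 were not tested. Dcn, Lum, Postn, Mgp and Aldh1a2 were listed at a log2 fold change of 0 and Pdgfrb at 0.43 per the authors' deposited table. Per-condition values were not used, so whether any signal was measured for the genes at 0 is unknown. The part of fibroblast or meningeal cells in the collagen values was not tested. Of 13 endothelial and pericyte markers Kdr at 0.71 and Cspg4 at -0.27 were the 2 tested per the authors' deposited table. By Cuffdiff 0 were called, and 0 had an unadjusted p under 0.05. The 11 not tested stood mostly on the higher side per the authors' deposited table. Flt1 was listed at 3.42, Tek at 2.29, Abcc9 at 1.10, Rgs5 at 1.07, Anpep at 0.81, and Kcnj8 and Pecam1 at 0.10. Cdh5 and Esam were listed at 0 in q1, Cldn5 at a log2 fold change of 0 and Vwf at -0.45. The part of endothelial cells or pericytes in the collagen values was not tested. Of 8 tested neural stem cell markers 1 was called higher, Nes at 0.75 (Cuffdiff q = 0.0157), and 2 lower, Fabp7 at -1.13 (Cuffdiff q = 0.00162) and Hes5 at -0.82 (Cuffdiff q = 0.0188) per the authors' deposited table. Nes lost its call with the GC trend removed, at 0.62, where p from the Cuffdiff statistic, adjusted over all tested entries, was 0.0718. With the normal p of that statistic Nes and Hes5 lost the call, at adjusted values of 0.298 and 0.304.

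Transcripts of the collagen family are long and rich in G and C. The 20 tested genes had a median GC content of 56.5% and a median length of 6284.5 bases, beside 50.6% and 3443 bases over tested entries with an annotated transcript. Fold change moved with GC content over all entries, with a median of 0.30 in the tenth of genes with the highest GC content and -0.31 in the tenth with the lowest, per the authors' deposited table. With that trend removed 6 collagen genes were called higher and 2 lower, and the median was 0.53. The number called over all entries with the trend removed is not given here, so these counts have no overall share beside them. Col18a1 and Col9a3 lost the call as given above, and the uncalled genes Col5a3 and Col9a2 went to -0.08 and -0.30. The calls of Col4a1, Col4a2, Col28a1, Col12a1, Col5a1, Col23a1, Col11a1 and Col26a1 were kept.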

How the data were processed

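RNA was measured in 4 libraries, 2 per group by the sample titles, and the authors deposited 1 table of 26815 entries. The submitters' processing notes name build mm10 (GRCm38), TopHat2 2.0.9, Cufflinks 2.2.1 and Cuffdiff. Which Cuffdiff version and annotation they took, and whether strand was used, is not given in the sources used here. The deposited log2 fold change is q2 over q1, the authors' test statistic is a score, and p-values and q-values come from the authors too, per the file headers. Calls are q under 0.05 over the 15315 entries the authors tested. The 2 columns of per-condition values could be tied to no group and stayed unused, so read depth, and with it the precision, is unknown.

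The family's members, its classes and the companion lists were chosen with earlier results of these data known. Every member is named; called members are given in full, the 3 uncalled members nearest the threshold with their q, and from each companion list up to 4 called genes with the largest fold change, or up to 2 others with the largest statistic where fewer than 2 were called. Genes set beside these in a list were chosen after values were seen. They were Serpinh1, P4ha1, P4hb, Fkbp10, Leprel2, Glt25d1, Crtap, Tmem38b, Timp1, Tbx18, Twist1, S100a4, Tagln, Thy1 and the untested cell type markers. All of these were chosen after values were seen. So were the chain-to-chain differences, the neighbouring genes and the miR-29 matches. Counts and medians of a list carry no test. Repeats and 3′ UTRs came from GENCODE M21, promoters and miRNAs from RefSeq (GRCm38.p6). GC content and length were matched by symbol, older symbols included, for 12211 tested entries; medians in 50 bins were subtracted, the statistic was rescaled, and a new p was taken from how the deposited p falls with the absolute statistic, with Benjamini-Hochberg adjustment, a procedure tested on simulated data. The other alternatives were other thresholds, a normal p, centring, entries whose locus overlaps no other, and a limit on the implied error, which replaced a filter on expression. Scripts ran under Python 3.11.15 with numpy 2.4.6, pandas 2.3.3, scipy 1.17.1, scikit-learn 1.9.0 and, for figures, matplotlib 3.10.9.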

Additional observations from a re-analysis of the deposited data

How the results depend on the processing

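The count of 8 collagen genes called higher and 2 lower, and the median of 0.57, moved by no more than 1.5 times with q under 0.1, centring, removal of the length or GC trend, or entries whose locus overlaps no other, and also with p read from the statistic, an alternative chosen after seeing the data. At q under 0.01 there were 5 called higher, since Col18a1, Col23a1 and Col9a3 fell outside. With a normal p of the deposited statistic there were 5 called higher and 0 lower; Col11a1, Col18a1, Col23a1, Col26a1 and Col9a3 lost the call, and the cause was not tested. With an absolute log2 fold change of at least 1, Col9a3 and Col11a1 dropped out, leaving 7 called higher and 1 lower. Among entries with an implied error under the median of all tested ones, 7 collagen genes were left by construction, 2 called higher (Col4a1 and Col5a1) and 2 lower, with a median of -0.053. No called member changed sign under any of these alternatives. Numbers called over all entries under the alternatives are not given here, so their counts, in collagens and in the companion lists, have no overall share beside them. No paired analysis was possible because values for single libraries were not analysed here, and leaving out each replicate was not run for the same reason. Read depth is unknown, so whether the 24 untested genes were limited by depth was not tested.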

Other observations

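Collagen transcripts are textbook targets of the miR-29 family, and the 3′ UTRs of the family were searched for the match to its seed after values had been seen. The 3 mature forms share bases 2 to 8, shown in capitals, from RefSeq (GRCm38.p6).
miR-29a-3p: uAGCACCAucugaaaucgguua
miR-29b-3p: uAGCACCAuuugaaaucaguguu
miR-29c-3p: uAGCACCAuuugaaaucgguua
The match TGGTGCT was counted on the transcript's own strand in the longest annotated 3′ UTR of each gene. It was found in 25 of 44 collagen genes (56.8%), and in 11 of them (25%) at least 2 times, beside 12.6% and 1.95% of 21760 protein-coding genes. Per 1000 bases of UTR there were 0.693 matches in collagens and 0.106 in all genes. Col4a1 held 1 and Col4a2 held 2, and the first of each is printed with its neighbouring bases, the match in capitals, from positions 33 to 39 of 1378 bases in Col4a1 and 43 to 49 of 971 in Col4a2.
Col4a1: gccaccgtcacaacaTGGTGCTactc
Col4a2: gtgggaaggccacgtTGGTGCTtatc
Genes called in both directions held matches. They stood in 3 of 8 genes called higher (Col4a1, Col4a2 and Col5a1, the last with 4), in 2 of 2 called lower (Col11a1 with 2 and Col26a1 with 4), in 9 of 10 tested and not called, and in 11 of 24 not tested. Col28a1 and Col12a1, among the highest of the family, held 0. The 3 miR-29 entries of the authors' deposited table were not tested, and these counts are a description of letters with no test.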
